A study of Penicillium oxalicum with 6 samples.

Results

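The genes described here are the 41 IDs from POX09450 to POX09490, out of 9834 gene IDs of the filamentous fungus Penicillium oxalicum. All 41 had an entry in every library. The range was chosen by measured values: in an earlier look at these same libraries many of its IDs were higher in the MuPOX06509 libraries than in the Ku70 libraries. The strain difference within the range is therefore given as a description, and nothing is rested on it.

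RNA-seq was done on mycelium, 1 g per library, kept for 24 h in liquid culture with 1% Avicel (microcrystalline cellulose). There were 3 libraries of strain MuPOX06509, read here as a deletion mutant of POX06509, and 3 libraries of strain Ku70, read as a mutant in Ku70. Within a strain the libraries carry the letters F, S and T, and all triplets of counts below follow that order. The series asks which transcription factors act on genes for cellulases and xylanases. The growth notes are the same for all 6 libraries and name spores of MuKu70 only, so whether the deletion was made in that strain, and whether a strain is a single clone, is not known here. Ku70 helps to rejoin broken DNA ends, and its loss in fungal hosts makes targeted gene replacement easier. Any other difference between the strains cannot be told apart from the loss of POX06509.

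Penicillium oxalicum is a soil fungus that secretes enzymes for the breakdown of cellulose and xylan. In filamentous fungi, genes that serve a shared task, above all genes of secondary metabolism, often lie next to one another and are switched on and off together. Such groups are commonly silent in laboratory culture. What each of the 41 genes encodes is not known here: none of the IDs equals a name in the reference gene table of assembly ASM172317v3. No function, name, sequence or chromosome position is therefore given to any of them, and whether neighbouring numbers mean neighbouring genes is also not given.

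Total expected counts (estimated reads per gene, which need not be whole) were 14605326 to 15219424 per library, and 3 counts, the most that a count of 0 allows, equalled 0.1971 to 0.2054 CPM (counts scaled to library size); such limits and the count intervals below cover counting error only. POX06509 had 0, 0 and 1 counts in MuPOX06509, against 1405, 2580 and 1851 in Ku70, in accord with the labels. Nothing in the labels says that libraries of a strain came from separate cultures, so the spread between them may be technical.

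The 41 IDs fell into 3 stretches. POX09459 to POX09474, 16 IDs, were low in Ku70, with a mean FPKM under 1 for 14 of them, and mostly higher in MuPOX06509. The 9 IDs before them, POX09450 to POX09458, were mostly at like levels in both strains, and so were the 16 IDs after them, POX09475 to POX09490. The summed counts of POX09459 to POX09474 were 1859, 2025 and 1453 in MuPOX06509 and 263, 176 and 184 in Ku70. All MuPOX06509 sums lay far above all Ku70 sums. Scaled to library size the sum was 8.73 times as high in MuPOX06509, and 6.82 times without POX09473, its most abundant gene. The same ratio was 0.754 for POX09450 to POX09458 and 1.15 for POX09475 to POX09490. Without the gene with the most MuPOX06509 counts in each, POX09457 and POX09486, it was 0.890 and 1.11. In bulk RNA, a higher level in every cell and a larger share of cells with these transcripts cannot be told apart.

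**Figure D1:**
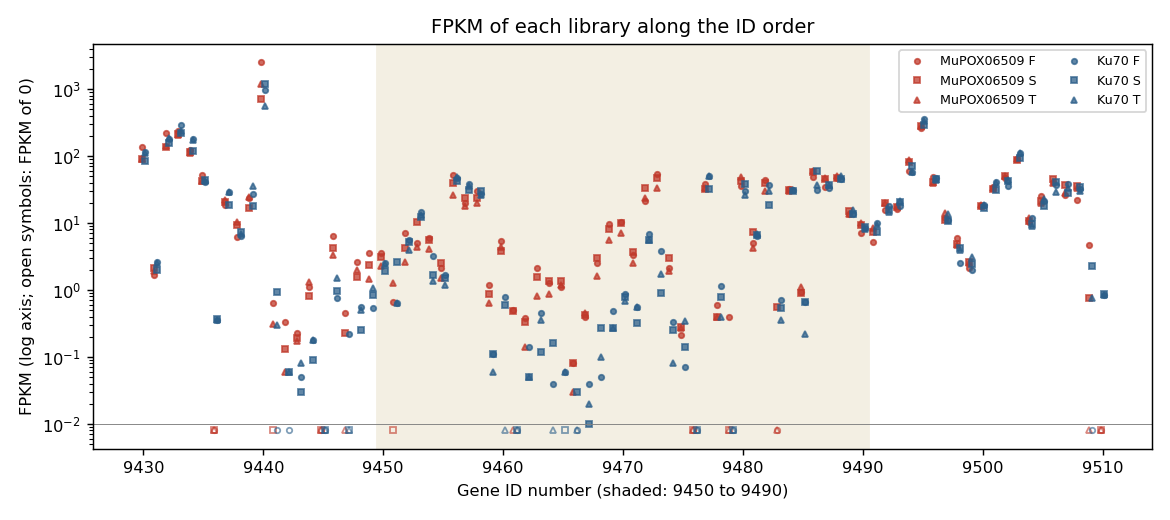
FPKM on a log axis against gene ID number from POX09430 to POX09510, one symbol per library (red MuPOX06509, blue Ku70; open symbols on the bottom line are an FPKM of 0), with the range POX09450 to POX09490 shaded. Red symbols stand above blue ones over most of POX09459 to POX09474 and overlap them at most other IDs of the shaded range.

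Of the 41 members, 31 had enough counts for the test across all genes (edgeR's quasi-likelihood test, Benjamini-Hochberg adjusted p under 0.05 over 8336 genes). In it 14 members were called higher in MuPOX06509, where 5.33% of all tested genes were, and 1 was called lower, where 7.27% were. Since the range was picked for its rise, these counts only describe it. Of the 14, 13 had ID numbers from POX09459 to POX09474, limits that were set from these same calls. Of these 13 genes 9 had under 10 counts in every Ku70 library, so they passed the filter on low counts through MuPOX06509 alone. The filter thus fixed the direction of their difference, though not its size. That every tested ID of the stretch was called rests partly on the filter. The untested IDs of the stretch were not called without it. None of the 10 tested IDs of POX09475 to POX09490 was called in either direction. The median log2 fold change was 3.58 over those 13 genes, 0.463 over the 31 tested members and 0.014 over all tested genes. Every MuPOX06509 library lay above every Ku70 library for 14 of the 31 tested members, against 15.3% of all tested genes. The 10 untested members had at most 23 counts over the 6 libraries, and 1 of them, POX09476, had none in any library.

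**Figure D2:**
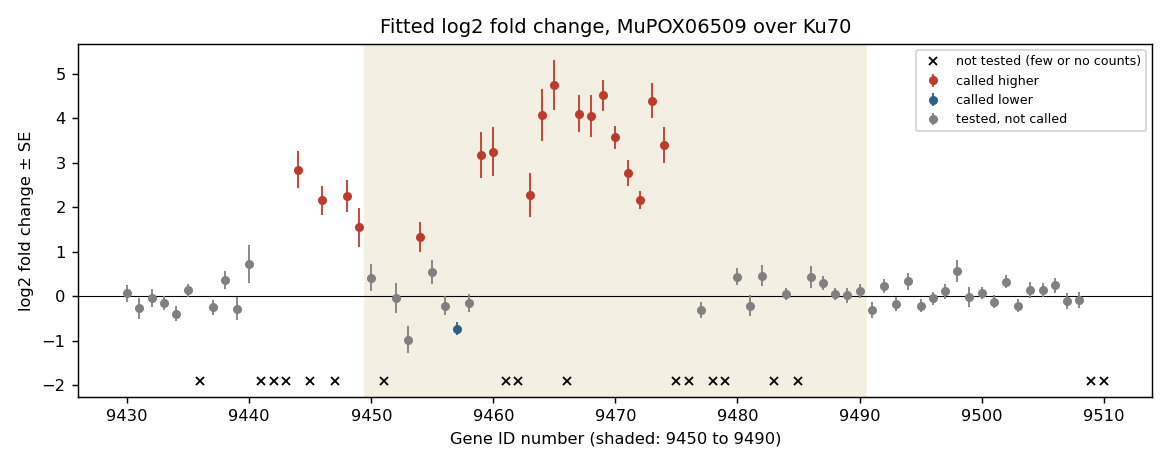
Fitted log2 fold change of MuPOX06509 over Ku70, with its approximate standard error (bars), against gene ID number from POX09430 to POX09510; red and blue points were called higher and lower, grey points were tested and not called, and crosses mark IDs that were not tested. Raised points fill POX09459 to POX09474, end on both sides, and return in a separate group from POX09444 to POX09449 outside the shaded range.

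The left edge of the raised stretch, set from these same calls, lay at POX09459. POX09458, the last ID before it, had 313, 253 and 214 counts in MuPOX06509 and 297, 319 and 287 in Ku70. These groups overlapped, and its FPKM, the count per length and library size, was 24.6 ± 5.07 in MuPOX06509 and 28.0 ± 1.72 in Ku70 (SD, n = 3). POX09459, the next ID, had 20, 15 and 11 counts in MuPOX06509 against 2, 2 and 1 in Ku70. The groups were apart, and the scaled sum was 9.37 times as high in MuPOX06509 (exact 95% interval 3.74 to 30.2). POX09459 had 5 counts over all Ku70 libraries, so the size of its change is known only within this wide interval.

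POX09460 to POX09466 were all low even where raised. POX09460 had 26, 19 and 22 counts in MuPOX06509 and 4, 3 and 0 in Ku70. It had the shortest length implied by counts and FPKM among the 13 tested genes of the stretch, 332 bases. Its FPKM in MuPOX06509 was the highest of these 7 genes, 4.53 ± 0.763 (SD, n = 3). POX09463 had 35, 26 and 14 counts in MuPOX06509 and 8, 2 and 6 in Ku70, POX09464 had 31, 34 and 22 against 1, 4 and 0, and POX09465 had 18, 23 and 20 against 1, 0 and 1. None of these groups overlapped, but the Ku70 totals were only 16, 5 and 2 counts. The scaled sums were 4.78 (2.76 to 8.78), 17.7 (7.31 to 56.0) and 31.1 (8.24 to 262.4) times as high in MuPOX06509, with exact 95% intervals for counting error in brackets. The log2 fold change of POX09464, 4.08 with all libraries, was 5.63 without Ku70 library S, which held 4 of its 5 Ku70 counts, and 3.50 without T, while that of POX09460, 3.25, was 2.66 without Ku70 library T. POX09465 had the largest fitted log2 change of all members, 4.75 ± 0.56 (SE), which rests on 2 counts in Ku70.

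The 3 untested IDs inside the stretch held few counts. POX09461 had 2, 2 and 0 counts in MuPOX06509 and none in Ku70. POX09462 had 8, 7 and 3 against 3, 1 and 1 in Ku70, so that the lowest MuPOX06509 and the highest Ku70 library held the same count. POX09466 had 3, 3 and 1 against 0, 1 and 0. The scaled ratio was 3.67 for POX09462, with an exact 95% interval of 1.31 to 12.6, and 7.13 for POX09466, with an interval of 0.916 to 321.4. At this depth a rise of POX09461 or POX09466 was not detectable beyond counting error, and none of the 3 IDs was called when every gene with a count was tested. The 16 IDs thus hold 13 genes called higher, not 16.

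POX09467 to POX09474 were 8 consecutive IDs that were all tested and all called higher, and they held most of the transcript. POX09467 had 42, 46 and 50 counts in MuPOX06509 and 5, 1 and 2 in Ku70. The groups were far apart, yet its FPKM in MuPOX06509 was only 0.420 ± 0.030 (SD, n = 3), because its implied length was large. Its counts and FPKM imply a length of 7369 bases (7205 to 7540 from the rounding of FPKM), longer than all but 43 of the 9094 IDs for which a length could be read. The median implied length was 1228 bases over those IDs and 1253 over the 13 tested genes of the stretch. POX09468 had 47, 55 and 31 counts in MuPOX06509 and 1, 5 and 2 in Ku70, again with no overlap. The log2 fold change of POX09467, 4.11, was 4.88 without Ku70 library F, and that of POX09468, 4.05, was 4.87 without Ku70 library S.

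POX09469 and POX09470 were more abundant in MuPOX06509 than the 10 IDs before them. POX09469 had 172, 149 and 103 counts in MuPOX06509 and 9, 5 and 5 in Ku70. Its FPKM was 7.72 ± 2.01 (SD, n = 3) in MuPOX06509 and 0.340 ± 0.121 (SD, n = 3) in Ku70, a log2 fold change of 4.52 ± 0.35 (SE). POX09470 had 219, 213 and 155 counts against 19, 17 and 15, and a log2 fold change of 3.58 ± 0.26 (SE). In both genes the strains were far apart beside the spread between libraries. POX09471, between these and the most abundant pair, changed less: it had 82, 90 and 64 counts against 14, 8 and 14, a log2 fold change of 2.77 ± 0.29 (SE).

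POX09472 and POX09473 gave 28.9% and 32.7% of the stretch's counts in MuPOX06509. POX09472 had 415, 656 and 471 counts in MuPOX06509 and 136, 109 and 112 in Ku70. In Ku70 it had the highest FPKM of the stretch, 6.00 ± 0.714 (SD, n = 3), and it had the smallest fitted change among the tested genes there, 2.17 ± 0.21 (SE) on the log2 scale. POX09473 had 690, 617 and 440 counts in MuPOX06509 and 52, 12 and 23 in Ku70. Its FPKM was 44.4 ± 10.3 (SD, n = 3) in MuPOX06509, above the median of all 9834 IDs there (19.0), and 2.16 ± 1.54 (SD, n = 3) in Ku70. Its log2 fold change was 4.39 ± 0.39 (SE), and 5.11 without Ku70 library F, its highest in that strain; the difference between this pair of genes was not tested. POX09472 and POX09473 were the only 2 genes of the 16 whose Ku70 libraries averaged an FPKM of 1 or more. A mean FPKM under 1 was found for 15.9% of all IDs in that strain.

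**Figure D3:**
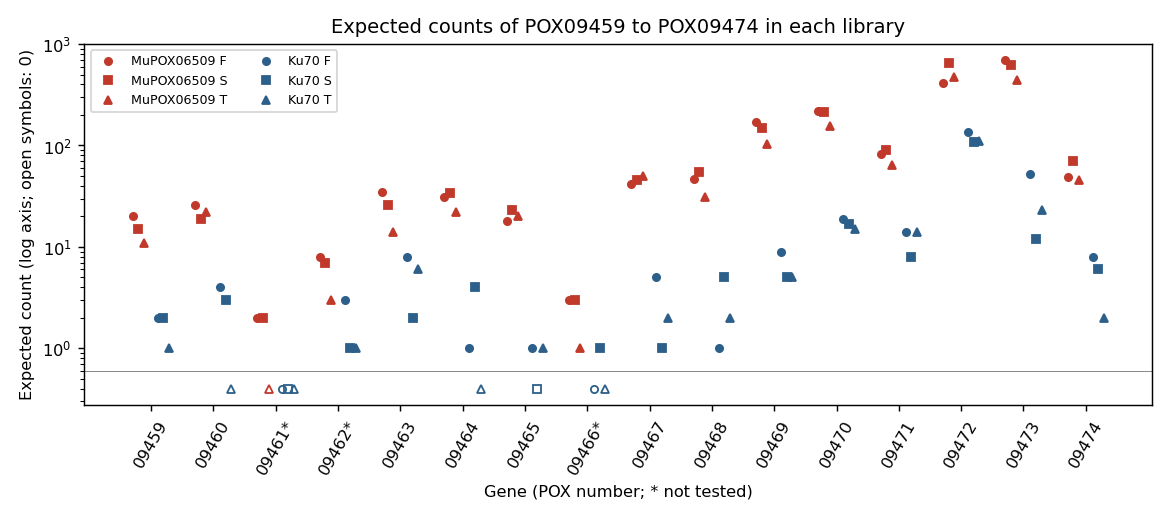
Expected counts on a log axis for each of POX09459 to POX09474, one symbol per library (red MuPOX06509, blue Ku70; open symbols on the bottom line are a count of 0; an asterisk marks IDs that were not tested). Levels in MuPOX06509 run from at most 8 counts in POX09461, POX09462 and POX09466 to at least 415 in POX09472 and POX09473, and the 13 tested genes show no overlap between strains.

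The right edge lay at POX09474. That gene had 49, 70 and 46 counts in MuPOX06509 and 8, 6 and 2 in Ku70, a log2 fold change of 3.39 ± 0.41 (SE). The next IDs placed the edge only loosely: POX09475 had 3, 4 and 4 counts against 1, 2 and 5, and POX09476 had none. The scaled ratio of POX09475 was 1.40, with an exact 95% interval of 0.513 to 4.01. Among the tested genes of the stretch the smallest ratio was 4.40 (3.92 to 4.95), in POX09472. A rise of POX09475 up to its own upper limit of 4.01 times was not excluded by its counts. POX09477, the first well-covered ID after the stretch, had 638, 553 and 575 counts in MuPOX06509 and 880, 544 and 872 in Ku70. Its groups overlapped, with a log2 fold change of -0.31 ± 0.18 (SE), and without Ku70 library S it was called lower, at -0.47.

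From POX09477 to POX09490 the strains were close. Of the 5 members with the highest FPKM in Ku70, 4 were here, at 35.5 (POX09487), 41.9 (POX09486), 44.4 (POX09477) and 47.5 (POX09488); the other was POX09456 further left. POX09488 had 1242, 1278 and 1401 counts in MuPOX06509 and 1274, 1259 and 1397 in Ku70. The groups overlapped and the log2 fold change was 0.057 ± 0.14 (SE). POX09487 had 890, 1207 and 1266 counts against 884, 982 and 976, also overlapping. POX09486 had 1807, 2166 and 2313 counts against 1182, 2239 and 1400: Ku70 library S stood with the MuPOX06509 libraries and the other Ku70 libraries below them. It was not called in this fit (log2 fold change 0.43). It was called higher with the letter as a block (0.49) and without Ku70 library S (0.80), where POX09480 was called higher too, at 0.64. POX09490, the last member, had 471, 642 and 697 counts against 576, 590 and 565. The first ID outside the range, POX09491, had 412, 601 and 681 against 810, 604 and 777. Both overlapped between strains, with log2 fold changes of 0.12 ± 0.17 and -0.31 ± 0.19 (SE). The fitted changes of all 10 tested genes from POX09475 to POX09490 lay between -0.306 and 0.463. POX09479 had a single count, in MuPOX06509 library F. The other untested IDs there were POX09478 (3, 2 and 2 counts against 6, 4 and 2), POX09483 (0, 3 and 0 against 4, 3 and 2) and POX09485. POX09485 had 4, 4 and 5 counts against 3, 3 and 1, so every MuPOX06509 library was above every Ku70 library. Its scaled ratio was 1.89, with an exact 95% interval of 0.702 to 5.60.

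On the left, POX09450 to POX09458 held 1 member called higher and 1 called lower. POX09450, the first member, had 27, 24 and 18 counts in MuPOX06509 and 20, 15 and 19 in Ku70, with overlap. POX09456 had 583, 452 and 304 counts against 563, 496 and 565, and its FPKM in Ku70 was 46.0 ± 3.005 (SD, n = 3). MuPOX06509 library T was the low one, and the groups overlapped. POX09457 had 507, 606 and 471 counts in MuPOX06509 and 1009, 800 and 933 in Ku70. Every MuPOX06509 library was below every Ku70 library, and it was the member called lower, at a log2 fold change of -0.73 ± 0.15 (SE); without MuPOX06509 library T it was not called (-0.65).

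POX09452, POX09453 and POX09454 had fractional counts, which arise where reads that match several genes are divided between them, and are less certain for that. They were the 3 such genes among the 41 (7.32%, against 4.65% of all IDs). POX09453 had 41.81, 86.23 and 36.57 counts in MuPOX06509 and 123.32, 104.50 and 112.29 in Ku70. All MuPOX06509 values were below all Ku70 values, with a log2 fold change of -0.98. It was not called in this fit, but was called lower without MuPOX06509 library S, its highest in that strain (-1.45), and with all 6 libraries in DESeq2 (-0.975), with the letter as a block (-1.05) and in limma with a filter (-1.11 to -0.698). POX09454 had 65.51, 62.13 and 46.07 counts against 36.58, 18.79 and 15.58, and was called higher, with a log2 fold change of 1.33 ± 0.33 (SE). That call was lost without MuPOX06509 library F (1.21) or S (1.29) and without Ku70 library S (1.23) or T (1.09). POX09452 had 87.16, 52.23 and 32.99 counts against 70.09, 64 and 50, with overlap. Summed over the 3 genes the counts were 194.48, 200.59 and 115.63 in MuPOX06509 and 229.99, 187.29 and 177.87 in Ku70, which overlap, with means of 170.2 ± 47.4 and 198.4 ± 27.8 (SD, n = 3). Which genes share reads with them is not known here.

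Beyond the range a second raised group began at once on the left. POX09449, the ID just outside, had 30.74, 20.82 and 13.30 counts in MuPOX06509 and 4.94, 7.60 and 9.63 in Ku70, and its log2 fold change was 1.55 ± 0.43 (SE). The groups were apart, and POX09449 too has fractional counts. All 4 tested IDs of POX09443 to POX09449 were called higher, at log2 values from 1.55 to 2.85 (median 2.20). POX09446, the most abundant of them, had 170, 114 and 90 counts against 21, 26 and 41. The limits of this group, too, were set from these same calls. In Ku70, POX09444 had 4, 2 and 4 counts and POX09448 had 11, 5 and 10. POX09444 and POX09449 were under 10 counts in every Ku70 library, so they passed the filter through MuPOX06509 alone. For these genes the filter therefore fixed the direction of the difference, though not its size. The 9 IDs of POX09450 to POX09458 thus lay between raised groups on both sides and held a single called rise, that of POX09454. The call of POX09449 was lost without MuPOX06509 library F (1.18) or S (1.57) and without Ku70 library F (1.31), S (1.62) or T (1.75), and in all 4 limma fits (0.348 to 1.43), so the end of that group nearest to the range is uncertain. Right of the range no ID from POX09491 to POX09510 was called.

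The reach of the rise along the ID order depends on how low-count IDs are treated. It spanned 16 numbers, POX09459 to POX09474, with untested IDs passed over, and 8, POX09467 to POX09474, where an untested ID ended it or where every gene with a count was tested.

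The order of the libraries within a strain is described apart from the strain difference. The spread between libraries does enter the calls by which the stretch was set. Among the 13 tested genes of the stretch, MuPOX06509 library T was the lowest of its strain in 9 (69.2%, on CPM with TMM factors), against 45.7% of all genes called higher and 32.9% of all tested genes. The median of T over the mean of the other MuPOX06509 libraries was -0.508 on the log2 scale for these 13 genes, and -0.115 for all genes called higher. POX09463 was the extreme, with 14 counts in T against 35 in F, while POX09467 was highest in T, with 50 counts. In Ku70, library F had strictly the highest count of its strain in 8 of the 13 genes and shared the highest in 3 more. On CPM with TMM factors it was the highest in 10 (76.9%), against 28.8% of all genes called higher and 31.6% of all tested genes. The clearest case was POX09473, with 52 counts in F against 12 and 23. Genes are not independent and the Ku70 counts are few, so these shares were not tested. In the raised group further left, MuPOX06509 library F was the highest of its strain in 3 of 4 tested genes. It was so in 43.5% both of all genes called higher and of all tested genes.

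**Figure D4:**
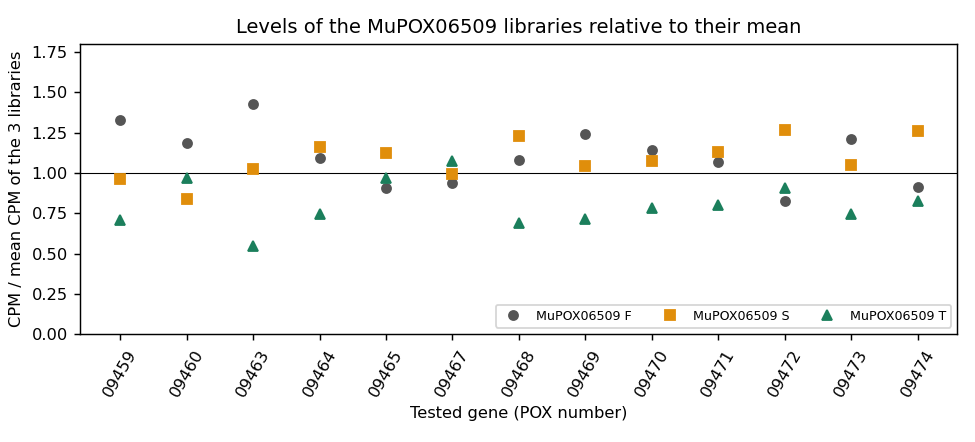
CPM of each MuPOX06509 library divided by the mean of the 3 libraries, for the 13 tested genes of POX09459 to POX09474. Library T (green triangles) is lowest in 9 of the 13 genes, and POX09467 is the one gene where it is highest.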

How the data were processed

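Per the file headers, each deposited table pairs gene IDs with an expected count and the authors' FPKM (per length and library size). BWA 0.7.10-r789, Bowtie2 2.1.0, DESeq2 and RSEM 1.2.12 are listed in the submitters' processing notes, without roles. Build, annotation and strand setting: not given in the sources used here. Reads of overlapping or antisense genes thus cannot be told apart, and an FPKM depends on the other genes of its library.

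Expected counts were rounded and fitted over all genes by the quasi-likelihood F test of edgeR 4.0.16 (R 4.3.3), with strain as the only term, all 6 libraries, TMM factors and a filterByExpr minimum of 10 counts. The script was checked on simulated counts. Standard errors of log2 changes are approximate (the change over the square root of F). Ratios of summed counts have exact Clopper-Pearson 95% intervals. A length is summed counts over FPKM and library totals. It is the length that the FPKM implies, which need not be the full length of the gene. For the comparison over all IDs, those with 10 or more counts and under 10% rounding error were used. No pair of libraries of a strain came within sampling noise of each other (chi-square per degree of freedom 14.9 to 79.8). Values in every library are given for members of the longest run, with log2 changes of at least 3 or at most -1, among the 5 highest in Ku70, at 0 in a strain, or at the ends. Other genes, among them POX09446, POX09453, POX09454 and POX09457, were named after their values were seen. The members, the lists and the limits of the stretches were chosen with earlier results of these data known. Alternatives were DESeq2 1.42.0, limma 3.58.1 on log2(FPKM + 1), and changes of filter, scaling, pseudocount, block and libraries.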

Additional observations from a re-analysis of the deposited data

How the results depend on the processing

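The number of members called higher was 14, and 10 to 15 in the 14 alternatives; limma, whose filter left 27 members to test, gave the 10. The 13 tested genes of POX09459 to POX09474 kept their direction and their call in all 170 values of the alternatives that tested them. Most of them passed the edgeR and limma filters, where these were used, through MuPOX06509 alone. The longest run was 7 or 8 IDs. With untested IDs passed over, the stretch was 12 IDs, POX09463 to POX09474, in DESeq2, and 8 where all genes with a count were tested, since low-count IDs then entered the test and were not called. The number called lower was 1; it was 2 with the letter as a replicate block, in DESeq2 and in limma with pseudocounts of 0.1, 1 and 5, where POX09453 joined POX09457, and 0 to 2 without 1 library. The block also added POX09486 to the members called higher, 15 in all. Same-letter deviations from the strain means had across-gene correlations of 0.388 (F), 0.063 (S) and 0.054 (T). The main fit had no term for the letters, and whether the libraries named F are paired was not tested. The median log2 fold change of the tested members, 0.463 over 31 of them, was 0.227 in limma with a pseudocount of 5. That fit tested 27 members, and its pseudocount pulls low genes towards no change. Without 1 library the median was 0.426 to 0.645. Without Ku70 library F or S it was 0.645 or 0.64; the cause was not tested. Depth limits POX09461, POX09462 and POX09466 and the size of change of genes with few Ku70 counts. The log2 change of POX09465 was 4.28 to 5.08 in the alternatives on counts; limma's pseudocount on FPKM lowered it, to 0.300 with a pseudocount of 5.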
